A study of Mus musculus with 8 samples.

Results

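Expression of genes known from cartilage was followed in RNA from the whole aorta of mice prone to atherosclerosis. The 10 genes were Sox9, Acan, Hapln1, Col2a1, Col9a1, Col11a2, Comp, Matn3, Chad and Cytl1. They were chosen by name with earlier results of these data known. Each was matched to a single locus among the 48607 loci of the deposited gene table. The study asked what loss of natriuretic peptide receptor C (NPRC, encoded by Npr3) changes in atherosclerosis, and sequenced poly(A) RNA of the aorta. The titles name 5 ApoE-/- libraries, 1 to 5, and 3 NPRC-/-ApoE-/- libraries, 1 to 3. All mice lacked apolipoprotein E in every cell, which makes them prone to plaque, and all ate a Western diet for 12 weeks. The NPRC-/-ApoE-/- mice in addition carried a CRISPR frameshift in the first exon of Npr3 in every cell, made on the C57BL/6 background and crossed to ApoE-/-, and the ApoE-/- mice were their littermates. ApoE-/- mice were bought for the study as males 8 weeks old, and no age or sex is stated for these groups in particular. The study's methods name n = 5 aortas in each group, while 5 and 3 libraries were analysed here.

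The genotype entered separately for each library conflicts with the title for 4 of the 8 libraries. According to this entry, the ones titled ApoE-/- 4 and 5 were NPRC-/-ApoE-/-, and those titled NPRC-/-ApoE-/- 1 and 2 were ApoE-/-. The 10 genes and the total counts of further cartilage lists are therefore compared by title and again by genotype entry. The entry also gives 5 against 3 libraries. Other single genes and marker lists are compared by title unless the entry is named. By title, Npr3 itself ranged from 0.62 to 1.69 FPKM in ApoE-/- and from 1.13 to 1.39 FPKM in NPRC-/-ApoE-/-, where FPKM is a read count scaled to transcript length and library size. Its log2 fold change was 0.10 ± 0.28 (SE) by title and 0.16 ± 0.28 by genotype entry, and a frameshift need not lower the RNA, so that its level does not settle the labels. Total counts were 62969165 to 86693276 per library, and the 10 smooth muscle markers, which define the tissue, summed to 1343 to 2962 FPKM with no marker at 0. No label ties a library to a particular mouse, so that p-values measure the spread between these libraries.

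Cartilage owes its stiffness to a network of thin collagen fibrils swollen by aggrecan, a large proteoglycan whose chondroitin sulphate chains draw in water. Chondrocytes build it under the control of Sox9, a transcription factor needed for their formation, and the fibrils are made of type II collagen with type XI inside and type IX on the surface. In atherosclerosis some cells of the arterial wall, smooth muscle cells among them, are known to take on chondrocyte-like expression, most of all in advanced and calcifying plaque.

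Promoters of the genes at both ends of the range of variation are shown here, because the level of Cytl1 was the steadiest of the 10 and those of Col2a1, Col9a1, Matn3 and Col11a2 the most variable, with Acan as the proteoglycan between them. Sequences are from RefSeq on GRCm38.p6, which had entries used here for 7 of the 10 genes in 8 windows. Each run is the 250 bases before the RefSeq start on the plus strand, 5′ to 3′, and none of the 5 windows overlaps an annotated exon. Capitals mark a GC box (GGGCGG, or its reverse complement) or a TATA box (TATAAA) on either strand.
Cytl1, chr5:37735269-37735518: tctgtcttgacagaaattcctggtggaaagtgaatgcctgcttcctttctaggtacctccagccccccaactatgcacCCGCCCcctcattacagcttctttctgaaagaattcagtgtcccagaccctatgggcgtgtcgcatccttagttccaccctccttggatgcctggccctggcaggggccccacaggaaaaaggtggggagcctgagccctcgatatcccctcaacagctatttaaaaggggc
Acan, chr7:79052976-79053225: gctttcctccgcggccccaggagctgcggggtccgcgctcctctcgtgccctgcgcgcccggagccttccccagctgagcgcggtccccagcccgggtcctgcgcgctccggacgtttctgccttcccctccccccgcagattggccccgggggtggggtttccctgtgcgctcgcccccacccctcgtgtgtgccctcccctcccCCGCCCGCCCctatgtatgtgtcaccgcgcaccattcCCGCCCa
Col9a1, chr1:24177360-24177609: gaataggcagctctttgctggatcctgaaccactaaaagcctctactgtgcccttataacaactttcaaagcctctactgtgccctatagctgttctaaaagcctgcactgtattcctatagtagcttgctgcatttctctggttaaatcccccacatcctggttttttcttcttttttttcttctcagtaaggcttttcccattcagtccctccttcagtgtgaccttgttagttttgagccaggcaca
Col11a2, chr17:34038888-34039137: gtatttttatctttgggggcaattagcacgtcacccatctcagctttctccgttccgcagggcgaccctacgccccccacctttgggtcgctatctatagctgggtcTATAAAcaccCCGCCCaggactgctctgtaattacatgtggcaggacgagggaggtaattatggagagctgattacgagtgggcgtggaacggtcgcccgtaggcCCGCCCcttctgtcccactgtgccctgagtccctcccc
Matn3, chr12:8947679-8947928: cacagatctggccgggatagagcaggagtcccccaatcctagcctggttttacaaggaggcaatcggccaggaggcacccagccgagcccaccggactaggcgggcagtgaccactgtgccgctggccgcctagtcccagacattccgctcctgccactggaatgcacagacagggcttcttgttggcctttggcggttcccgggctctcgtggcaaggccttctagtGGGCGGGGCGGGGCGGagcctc
The start is that of the GENCODE gene for Cytl1, Col9a1 and Matn3, and lies 257 bases before it for Acan and 299 bases before it for Col11a2. Of the windows not printed, that of Hapln1 and a second one of Col9a1 lie inside the GENCODE gene and overlap an exon of it. A GC box was found in 5 of the 8 windows, among them those of Cytl1, Acan, Col11a2 and Matn3, and in 32.7% of 32851 promoters of the same length. The TATA box was found in 2 windows, those of Col11a2 and Chad, and in 12.4% of promoters. The core letters bound by SOX proteins, ACAAT, occurred in 1 window (Hapln1) and in 27.7% of promoters, and the longer AACAAT, which contains them, in 0 windows and 9.42% of promoters. The Col9a1 window printed above held none of these motifs, and at 43.6% its GC content was below the median of all promoters, 52.4%, while that of Acan reached 74.4%. Sox9, Comp and Col2a1 were not analysed for promoter sequence.

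The 10 genes differed widely in level, from Cytl1, the highest, to Col9a1 and Matn3, which had under 80 counts in every library. On the FPKM scale, which is per length of transcript, the mean over the 8 libraries was 32.3 ± 3.01 (SD) for Cytl1, 13.6 ± 5.03 for Comp, 5.94 ± 1.99 for Acan and 3.53 ± 4.13 for Col2a1. It was 1.66 ± 0.523 for Sox9, 1.12 ± 0.239 for Chad, 0.704 ± 0.454 for Col11a2 and 0.63 ± 0.252 for Hapln1. Col9a1 (0.045 ± 0.0607) and Matn3 (0.0425 ± 0.0483) came last. Neighbours in this order had separate ranges only between Cytl1 and Comp and between Hapln1 and Col9a1. Comp was above Acan in 8 of 8 libraries although their ranges overlap, whereas Acan was above Col2a1 in 6, Col2a1 above Sox9 in 4, Col11a2 above Hapln1 in 3 and Col9a1 above Matn3 in 3, so that these pairs did not keep their order beyond the spread. Sox9 was above Chad, and Chad above Col11a2, in 7 of 8 libraries. Of 22 other cartilage matrix genes, 8 had a mean of at least 1 FPKM and 14 a lower one, over a range from 0 to 27.4 FPKM.

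**Figure D1:**
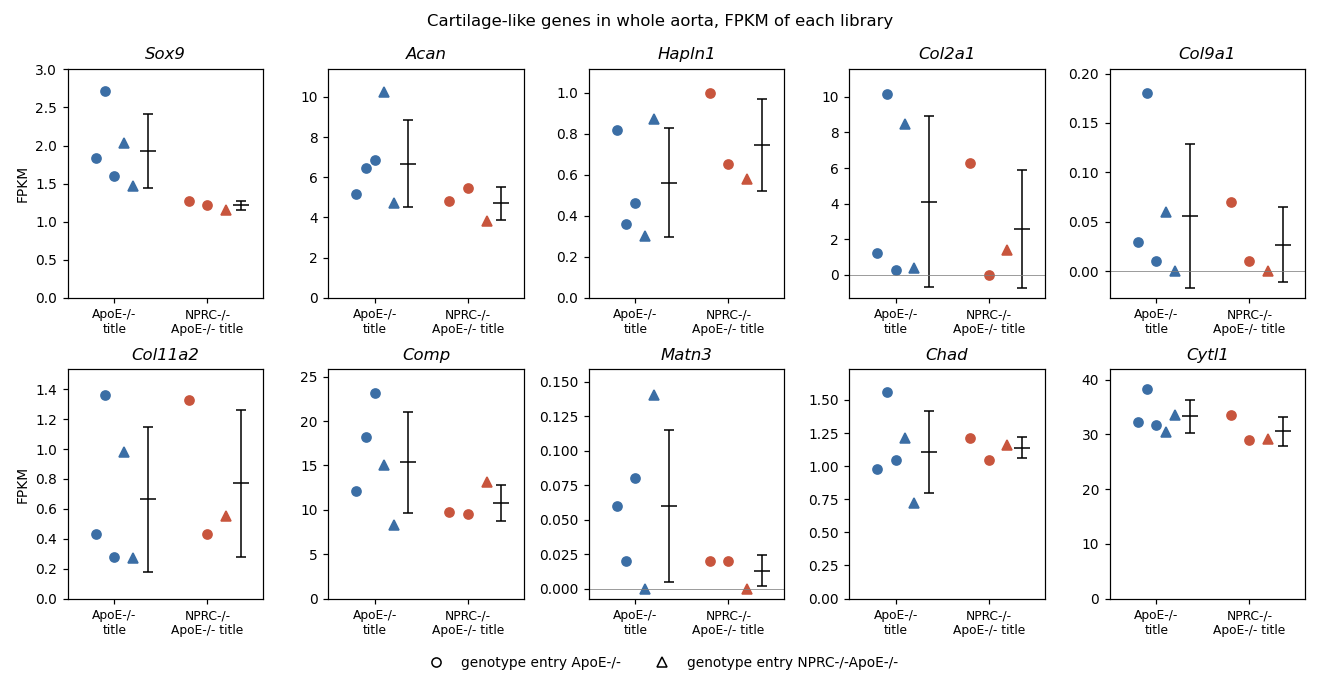
FPKM of each of the 10 genes (vertical axis, from 0, a scale of its own per gene) in every library, placed and coloured by title, with circles for a genotype entry of ApoE-/- and triangles for NPRC-/-ApoE-/-; the bar beside each group is the mean ± SD of 5 or 3 libraries. Sox9 is the only gene whose titled groups do not overlap (1.47 to 2.71 against 1.15 to 1.27 FPKM), while Col2a1 spans 0 to 10.19 FPKM and Cytl1 stays between 28.94 and 38.25.

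Sox9 (ENSMUSG00000000567, plus strand of chromosome 11, 112782224 to 112787760) had lower values in the libraries titled NPRC-/-ApoE-/-. It was at 1.84, 2.71, 1.6, 2.03 and 1.47 FPKM in ApoE-/- 1 to 5 and at 1.27, 1.22 and 1.15 FPKM in NPRC-/-ApoE-/- 1 to 3. The titled groups did not overlap, with means of 1.93 ± 0.487 (SD, n = 5) and 1.21 ± 0.0603 (n = 3) FPKM. In edgeR's quasi-likelihood test on the counts the log2 fold change was -0.65 ± 0.22 (SE), with an unadjusted p of 0.0163 and a Benjamini-Hochberg adjusted p of 0.317 over 31983 loci. A two-sided exact permutation test on log2 CPM (counts scaled to the library total, here adjusted by edgeR's TMM factors) gave p = 0.0357. This is the smallest that 5 against 3 libraries allow. By genotype entry the log2 fold change was -0.11 ± 0.31, with 1.73 ± 0.604 and 1.55 ± 0.445 FPKM, and the groups overlapped. Without the library NPRC-/-ApoE-/- 2 the unadjusted p by edgeR was 0.0534 at a log2 fold change of -0.61. In bulk RNA, fewer cells of a type and less RNA per cell cannot be told apart. By title the log2 fold change was positive for 10 of 10 smooth muscle markers. It was negative for 8 of 8 macrophage and 6 of 6 adventitial fibroblast markers. By edgeR 0 of these markers had an adjusted p under 0.05, and the summed ranges of the titled groups overlapped in each list. The sums weigh the most abundant genes most heavily, which were Acta2, Lyz2 and Col1a1 in turn. Smooth muscle markers summed to 1343 to 1793 FPKM in ApoE-/- and 1732 to 2962 in NPRC-/-ApoE-/- (9 of 10 higher at an unadjusted p under 0.05), macrophage markers to 599 to 1816 and 291 to 957 (3 of 8 lower), and adventitial fibroblast markers to 506 to 1332 and 282 to 701 (2 of 6 lower), with no marker of these lists at 0. Of all loci, 5.72% were higher and 7.16% lower at that p. Under the genotype entry, 0 markers of these lists had such a p. Endothelial markers summed to 77.26 to 87.97 FPKM in ApoE-/- and 76.27 to 82.75 in NPRC-/-ApoE-/- by title. There 0 of 6 had such a p, as did 0 of 6 brown fat and 0 of 5 fat markers. The part of the markers in the Sox9 difference was not tested.

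Acan and Hapln1 belong to the same complex, since link protein, the product of Hapln1, fastens aggrecan to hyaluronan. Acan (ENSMUSG00000030607, plus strand of chromosome 7, 79053483 to 79115099) was at 5.15, 6.44, 6.86, 10.24 and 4.71 FPKM in ApoE-/- 1 to 5 and at 4.79, 5.47 and 3.82 FPKM in NPRC-/-ApoE-/- 1 to 3. ApoE-/- 4 was the highest library, and the titled groups overlapped. The log2 fold change by title was -0.51 ± 0.29, with an adjusted p of 0.485 by edgeR. Hapln1 (ENSMUSG00000021613, plus strand of chromosome 13, 89539796 to 89611652) was at 0.82, 0.36, 0.46, 0.30 and 0.87 FPKM in ApoE-/- 1 to 5 and at 1.00, 0.65 and 0.58 FPKM in NPRC-/-ApoE-/- 1 to 3. The library highest for Acan, ApoE-/- 4, was the lowest for Hapln1. Its log2 fold change by title was 0.45 ± 0.35, with an adjusted p of 0.608 by edgeR. Both values were within the spread of the libraries, and by genotype entry both changed sign, to 0.17 ± 0.33 for Acan and -0.17 ± 0.39 for Hapln1. Over the 8 libraries the log2 CPM of Acan and Hapln1 had a Pearson correlation of -0.78 and a Spearman correlation of -0.71, given as a description of points that share library and depth. A processed pseudogene, Gm8546, lies inside the Hapln1 locus on the other strand.

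The collagen genes varied widely within both titled groups. Col2a1 (ENSMUSG00000022483, minus strand of chromosome 15, 97975602 to 98004695), the chain of type II collagen, was at 1.22, 10.19, 0.26, 8.46 and 0.40 FPKM in ApoE-/- 1 to 5. In NPRC-/-ApoE-/- 1 to 3 it was at 6.29, 0.00 and 1.38 FPKM, from 6062, 2 and 1330 counts. ApoE-/- 2, ApoE-/- 4 and NPRC-/-ApoE-/- 1 stood high, with 7580, 7820 and 6062 counts, and each titled group held both high and low libraries. Within ApoE-/- the highest library had 39.8 times the CPM of the lowest, with an exact 95% counting interval of 35.0 to 45.5. Within NPRC-/-ApoE-/- the ratio was 2202, with an interval of 609 to 18183, and such intervals cover counting error only. The log2 fold change was -0.70 ± 1.61 by title (adjusted p of 0.883 by edgeR) and 0.05 ± 1.61 by genotype entry.

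Col9a1 and Col11a2 code for chains of type IX and type XI collagen, the partners of type II in the fibril. Col9a1 (ENSMUSG00000026147, plus strand of chromosome 1, 24177610 to 24252684) had 13, 74, 7, 29 and 0 counts in ApoE-/- 1 to 5 and 38, 4 and 0 counts in NPRC-/-ApoE-/- 1 to 3, or at most 0.18 FPKM. The same 3 libraries were highest, and ApoE-/- 2 had at least 28.3-fold the CPM of ApoE-/- 5, taking 3 counts as the floor of that library. Col11a2 (ENSMUSG00000024330, plus strand of chromosome 17, 34039437 to 34066685) was at 0.43, 1.36, 0.28, 0.98 and 0.27 FPKM in ApoE-/- 1 to 5 and at 1.33, 0.43 and 0.55 FPKM in NPRC-/-ApoE-/- 1 to 3. Those 3 libraries again led, with 5.03 times (4.26 to 5.97) the lowest CPM in ApoE-/- and 3.03 times (2.62 to 3.51) in NPRC-/-ApoE-/-. By title the log2 fold change was -1.0 ± 1.5 for Col9a1 (adjusted p of 0.807 by edgeR) and 0.22 ± 0.61 for Col11a2 (0.905), and by genotype entry it was -1.54 ± 1.53 and -0.26 ± 0.62. Without the library ApoE-/- 4, both libraries left under the genotype entry NPRC-/-ApoE-/- had 0 counts of Col9a1, and the difference by entry had an unadjusted p of 0.0103 and an adjusted p of 0.903 by edgeR.

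The collagen genes and Chad ranked the libraries in similar orders. Over the 8 libraries the Spearman correlation of log2 CPM was 0.81 between Col2a1 and Col11a2 (Pearson 0.66), 0.69 between Col2a1 and Col9a1 (0.46), 0.74 between Col9a1 and Col11a2 (0.74) and 0.98 between Col11a2 and Chad (0.82). Clec3a, a C-type lectin known from cartilage and chosen here after its values were seen, was at 0.20, 1.94, 0.06, 0.66 and 0.00 FPKM in ApoE-/- 1 to 5 and at 0.16, 0.00 and 0.17 FPKM in NPRC-/-ApoE-/- 1 to 3, so that ApoE-/- 2 and ApoE-/- 4 were again highest but NPRC-/-ApoE-/- 1 was not. Sox9 had a Spearman correlation of 0.52 with Col2a1 and 0.69 with Acan. Airway tissue has cartilage of its own, and the 10 airway epithelium markers summed to 0.52 to 3.04 FPKM in ApoE-/- and 0.61 to 0.93 in NPRC-/-ApoE-/-, with 2 to 5 of them at 0 in each library and Scgb3a2 at 0 in all. The highest sum was in ApoE-/- 1 and the lowest in ApoE-/- 4, where Col2a1 was at 1.22 and 8.46 FPKM. Their part in the order of the libraries was not tested.

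**Figure D2:**
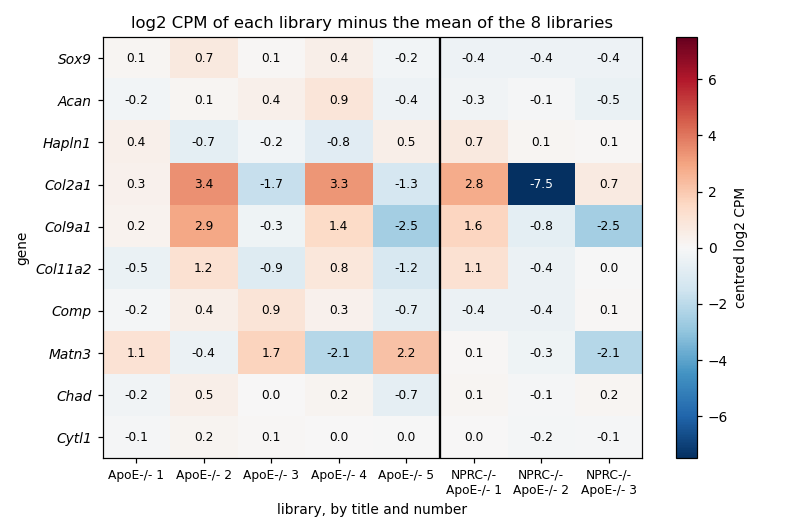
Log2 CPM of each gene (rows) in each library (columns, in the order of the titles) minus its mean over the 8 libraries, with the value printed in each cell; red is above and blue below the mean, and the black line separates the titled groups. Col2a1, Col9a1 and Col11a2 are highest in ApoE-/- 2, ApoE-/- 4 and NPRC-/-ApoE-/- 1, which lie on both sides of the line, and the Cytl1 row stays within 0.20 of its mean.

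Comp, Matn3 and Chad code for matrix proteins that bind the collagen fibrils. Comp (ENSMUSG00000031849), a thrombospondin-family protein also called cartilage oligomeric matrix protein, was at 12.09, 18.22, 23.16, 15.01 and 8.27 FPKM in ApoE-/- 1 to 5. In NPRC-/-ApoE-/- 1 to 3 it was at 9.73, 9.50 and 13.10 FPKM. ApoE-/- held both the highest and the lowest library. The log2 fold change was -0.50 ± 0.34 by title, with an adjusted p of 0.559 by edgeR, and -0.22 ± 0.38 by genotype entry. Without ApoE-/- 5, the lowest library, Comp had a log2 fold change of -0.64 with an unadjusted p of 0.0435 and an adjusted p of 0.281. The Comp locus, on the plus strand of chromosome 8 from 70373558 to 70383119, runs past the GENCODE end at 70382066 and overlaps Crtc1 on the other strand, and whether the counting used strand was not given.

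Chad (ENSMUSG00000039084, plus strand of chromosome 11, 94565047 to 94569127), the cell-binding leucine-rich protein chondroadherin, was at 0.98, 1.56, 1.05, 1.21 and 0.72 FPKM in ApoE-/- 1 to 5 and at 1.21, 1.05 and 1.16 FPKM in NPRC-/-ApoE-/- 1 to 3. The 3 libraries titled NPRC-/-ApoE-/- lay inside the range of the other 5, and the log2 fold change was 0.07 ± 0.27 by title and -0.13 ± 0.28 by genotype entry. Its locus overlaps Acsf2 on the other strand. Matn3 (ENSMUSG00000020583, plus strand of chromosome 12, 8947929 to 8972028), a matrilin that links fibrils to other matrix, had 18, 4, 25, 0 and 39 counts in ApoE-/- 1 to 5 and 8, 4 and 0 counts in NPRC-/-ApoE-/- 1 to 3. Its highest libraries were therefore ApoE-/- 5 and 3, among the lowest for Col2a1. The log2 fold change of Matn3 was -2.03 ± 1.35 by title (adjusted p of 0.544 by edgeR) and 0.08 ± 1.37 by genotype entry.

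Cytl1 (ENSMUSG00000062329, plus strand of chromosome 5, 37735519 to 37739820) codes for a small secreted protein known from cartilage and from blood progenitors, and was both the most abundant of the 10 per length and the steadiest. It was at 32.29, 38.25, 31.73, 30.51 and 33.63 FPKM in ApoE-/- 1 to 5 and at 33.51, 28.94 and 29.15 FPKM in NPRC-/-ApoE-/- 1 to 3. The groups overlapped, the highest library had 1.30 times (1.23 to 1.37) the CPM of the lowest, and the log2 fold change was -0.10 ± 0.12 by title (adjusted p of 0.748 by edgeR) and -0.05 ± 0.13 by genotype entry. The SD of its log2 CPM over the 8 libraries was 0.11, and 2.02% of the 31983 loci tested had a smaller one. For comparison, the median SD of all loci was 0.44. The SD was 0.35 for Chad, 0.42 for Sox9, 0.47 for Acan, 0.56 for Comp and 0.57 for Hapln1. It was 0.94 for Col11a2, 1.6 for Matn3, 1.95 for Col9a1 and 3.61 for Col2a1, and 99.6% of loci had a smaller SD than Col2a1.

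All 10 genes passed the filter of a mean of 10 counts, and 0 of them met the criterion of an unadjusted p under 0.05 at a fold change over 2 or under 0.5, which 5.41% of all loci met by title. At an unadjusted p under 0.05 alone, 1 of the 10 (Sox9) was lower in NPRC-/-ApoE-/-, where 7.16% of loci were lower, and 0 were higher, where 5.72% of loci were. The groups did not overlap for 1 of 10 (Sox9, lower), against 4.53% of all loci that were lower without overlap and 2.65% that were higher. By edgeR 0 of the 10 genes had an adjusted p under 0.05, as did 0.0% of all loci, and DESeq2 and limma on log2(FPKM + 1) also called 0 of the 10 adjusted and 1 unadjusted. Of the 31983 loci DESeq2 called 1030 and limma 3 by title. The log2 fold changes were negative for 7 and positive for 3, with a median of -0.51 beside -0.01 over all loci. By genotype entry, 0 of 10 met the criterion (1.22% of loci), 0 had an unadjusted p under 0.05 (1.94%) and 0 were without overlap (1.24%), with a median of -0.12 beside 0.00 over all loci. A total of 7 genes were negative there too, but Acan, Hapln1, Col2a1, Col11a2, Matn3 and Chad had the opposite sign to that by title.

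**Figure D3:**
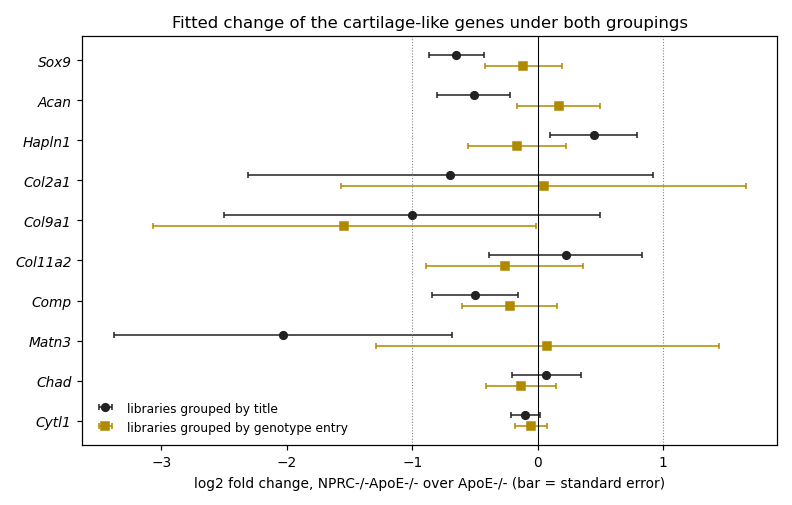
Log2 fold change of NPRC-/-ApoE-/- over ApoE-/- (horizontal axis) of each of the 10 genes by edgeR, with libraries grouped by title (black circles) or by genotype entry (yellow squares); bars are ± SE and dotted lines mark a fold of 2 either way. Sox9 is at -0.65 ± 0.22 by title and -0.11 ± 0.31 by entry, Cytl1 is close to 0 in both, and the bars of Col2a1 extend past 1 dotted line by title and past both by entry.

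The wider machinery of cartilage was read from 6 lists of 76 genes, of which 67 were tested and 9 fell below the filter. By title, 5 of the 67 met the criterion in the lower direction (3.74% of all loci) and 0 in the higher (1.67%). The 5 were Runx3, Prg4, Adamts4, Mmp13 and Ibsp, and 46 of the 67 log2 fold changes were negative, with a median of -0.20. By edgeR 0 of the 67 had an adjusted p under 0.05. At an unadjusted p under 0.05, 7 were lower and 4 higher, beside 7.16% and 5.72% of all loci. The groups did not overlap for 2 lower and 3 higher genes, beside 4.53% and 2.65% of all loci. DESeq2 called 3 of the 67 adjusted (Prg4, Wwp2 and Chst3), beside a similar share of all loci, 1030 of 31983. With limma on log2(FPKM + 1), 0 of the 67 were called. By genotype entry 0 met the criterion and 0 had an unadjusted p under 0.05, 32 were negative and 35 positive, and the median was 0.00. Log2 fold changes by entry were -0.04 ± 0.63 for Runx3, -0.18 ± 0.76 for Prg4 and -0.29 ± 0.74 for Adamts4. They were -0.87 ± 1.30 for Mmp13, -0.33 ± 0.82 for Ibsp and 0.21 ± 0.28 for Wwp2. The count by title was 12 without the library NPRC-/-ApoE-/- 1, 1 without NPRC-/-ApoE-/- 2 and 2 without NPRC-/-ApoE-/- 3, and by genotype entry it was 4 without ApoE-/- 4 and 1 without NPRC-/-ApoE-/- 3. Without NPRC-/-ApoE-/- 2 or without NPRC-/-ApoE-/- 3, the unadjusted p by edgeR of Runx3, Adamts4, Mmp13 and Ibsp was 0.0682 to 0.0992, so that these calls ended, while that of Prg4 was 0.0301 and 0.0305.

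In the list of chondrocyte transcription factors and their partners, 1 of 8 tested met the criterion, lower, beside 3.74% of all loci. Runx3, a partner of Runx2 in chondrocyte maturation that lymphocytes and macrophages also express, was at 0.72, 1.78, 2.04, 2.05 and 0.88 FPKM in ApoE-/- 1 to 5 and at 0.94, 0.39 and 0.44 FPKM in NPRC-/-ApoE-/- 1 to 3. Its log2 fold change was -1.35 ± 0.48, with an unadjusted p of 0.0204 and an adjusted p of 0.329 by edgeR, although the groups overlapped. The 6 lymphocyte markers were all negative too, with sums of 2.6 to 12.84 FPKM in ApoE-/- and 1.65 to 3.26 in NPRC-/-ApoE-/-, 1 marker at 0 in NPRC-/-ApoE-/- 2, a median log2 fold change of -1.24 and 1 of 6 (Cd3e) lower at an unadjusted p under 0.05. The 8 macrophage markers, whose sums are given beside Sox9, were all negative as well, with a median log2 fold change of -0.97. The part of either list in the Runx3 value was not tested. The most abundant of the list were Wwp2, which codes for a ubiquitin ligase and not a transcription factor and whose locus also holds the cartilage microRNA gene Mir140, and Foxc1. Wwp2 was at 13.72 to 17.86 FPKM in ApoE-/- and 21.80 to 27.12 FPKM in NPRC-/-ApoE-/-, with no overlap and a log2 fold change of 0.67 ± 0.17 (unadjusted p of 0.00309, adjusted p of 0.251 by edgeR). Foxc1 had a log2 fold change of 0.37 ± 0.29.

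In the other cartilage matrix, 1 of 19 tested met the criterion, lower, beside 3.74% of all loci. Prg4, the joint lubricant lubricin, was at 7.27, 8.94, 24.50, 16.07 and 6.96 FPKM in ApoE-/- 1 to 5 and at 5.39, 2.83 and 2.67 FPKM in NPRC-/-ApoE-/- 1 to 3, with no overlap. Its log2 fold change was -1.84 ± 0.53, with an unadjusted p of 0.00694 and an adjusted p of 0.27 by edgeR, and DESeq2 gave an adjusted p of 0.00856. Prelp (0.48 ± 0.18) and Fmod (-0.34 ± 0.26), small leucine-rich proteoglycans, were the most abundant. The partner chains Col9a2, Col9a3 and Col11a1, chosen after their values were seen, did not exceed 0.09, 0.26 and 0.22 FPKM.

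The enzymes that cut aggrecan and matrilins, with their inhibitor Timp3, all had negative log2 fold changes by title. Of these, Adamts9 (-0.02 ± 0.18), Adamts15 (-0.03 ± 0.30) and Timp3 (-0.18 ± 0.24), chosen after their values were seen, lay within their SE of 0. The criterion was met by 2 of 8, both lower, beside 3.74% of all loci. Adamts4, an aggrecanase, was at 1.56, 1.52, 3.38, 2.44 and 0.89 FPKM in ApoE-/- 1 to 5 and at 1.17, 0.30 and 0.50 FPKM in NPRC-/-ApoE-/- 1 to 3. Its log2 fold change was -1.6 ± 0.56 (unadjusted p of 0.0196, adjusted p of 0.329 by edgeR). Mmp13, a collagenase of type II collagen, was at 4.09, 4.82, 32.93, 12.86 and 1.94 FPKM in ApoE-/- 1 to 5 and at 3.75, 0.88 and 0.43 FPKM in NPRC-/-ApoE-/- 1 to 3, with a log2 fold change of -2.82 ± 1.12 (unadjusted p of 0.0325, adjusted p of 0.352). Mmp13 was at -1.84 without ApoE-/- 3 (unadjusted p of 0.0699 by edgeR), at -2.73 without ApoE-/- 4 (0.0518) and at -4.15 without NPRC-/-ApoE-/- 1 (0.014), and with a replicate block in the libraries 1 to 3 its unadjusted p was 0.104, against 0.0276 with no block. Adamts4 was at -2.27 without NPRC-/-ApoE-/- 1. Both ranges overlapped, and ApoE-/- 3 was highest for both. Adamts5, the other main aggrecanase and chosen after its values were seen, did not overlap, at 5.25 to 7.49 and 2.96 to 4.8 FPKM. Its log2 fold change was -0.68 ± 0.19 by title (unadjusted p of 0.00658, adjusted p of 0.268 by edgeR) and -0.15 ± 0.30 by genotype entry. The most abundant were Mmp3 (-1.20 ± 0.61) and Adamts1 (-0.11 ± 0.29). Macrophages and fibroblasts also make several of these proteases. The macrophage and fibroblast markers, negative by title with overlapping sums, are given beside Sox9. Their part here was not tested. By genotype entry 7 of the 8 were negative, with a median of -0.14.

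Of the genes of hypertrophic cartilage and bone, 1 of 7 tested met the criterion, lower, beside 3.74% of all loci. Ibsp, bone sialoprotein, was at 0.71, 1.83, 0.76, 1.4 and 0.25 FPKM in ApoE-/- 1 to 5 and at 0.49, 0.22 and 0.16 FPKM in NPRC-/-ApoE-/- 1 to 3. The ranges overlapped, and the log2 fold change was -1.77 ± 0.65 (unadjusted p of 0.0239, adjusted p of 0.338 by edgeR). Without ApoE-/- 2 its unadjusted p was 0.0506 by edgeR. Spp1, osteopontin, which macrophages of plaque also make and whose locus includes Gm42793, was at 105 to 1275 FPKM with a log2 fold change of -1.51 ± 0.80, which did not pass the test. Alpl, alkaline phosphatase of mineralizing cells, was at -0.41 ± 0.26. Of the signals and receptors 0 of 14 tested met the criterion in either direction, beside 5.41% of all loci. The Wnt antagonist Frzb was at -0.82 ± 0.56 and Bmp6 at -0.20 ± 0.15. Of the genes of chondroitin sulphate synthesis and sulphation 0 of 11 met it, with Chsy1 at -0.19 ± 0.20 and Chpf at -0.59 ± 0.33. Ihh, a signal of growth plate cartilage, and the sulphotransferase gene Chst3, both chosen after their values were seen, were higher without overlap, with log2 fold changes of 0.80 ± 0.31 and 0.69 ± 0.17 and adjusted p of 0.348 and 0.251 by edgeR. Their log2 fold changes by genotype entry were 0.19 ± 0.41 and 0.27 ± 0.28. The unadjusted p of Ihh, 0.0285, was 0.0522 to 0.0822 without ApoE-/- 1, ApoE-/- 2, NPRC-/-ApoE-/- 2 or NPRC-/-ApoE-/- 3.

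**Figure D4:**
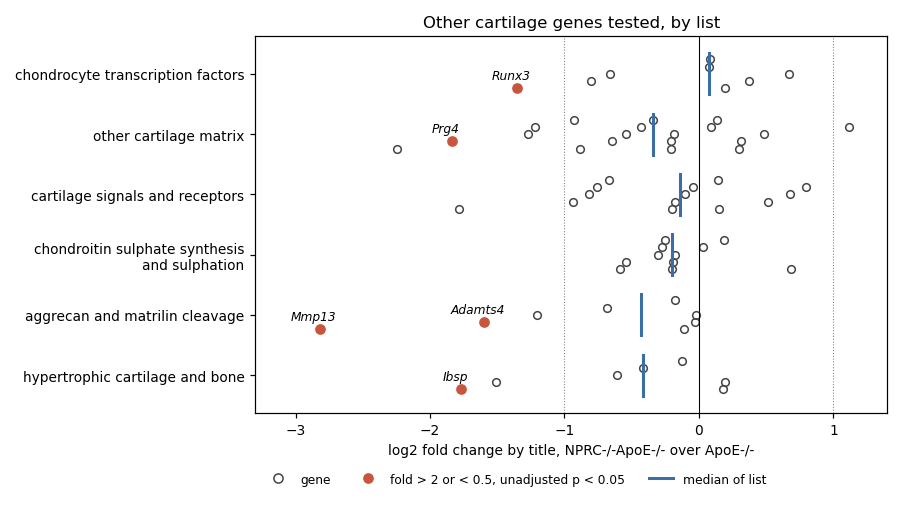
Log2 fold change by title (horizontal axis) of the 67 tested genes of the 6 wider lists, 1 row per list and 1 circle per gene, with the list's median as a blue bar and dotted lines at a fold of 2 either way; filled circles met the fold criterion with an unadjusted p under 0.05. All 5 filled circles (Runx3, Prg4, Adamts4, Mmp13 and Ibsp) lie to the left, and the medians run from -0.43 for the cleavage genes to 0.08 for the transcription factors.

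The mean of the 10 genes, each centred on its log2 CPM, was 0.83 in ApoE-/- 2, 0.54 in NPRC-/-ApoE-/- 1, 0.45 in ApoE-/- 4, 0.09 in ApoE-/- 1, 0.00 in ApoE-/- 3, -0.45 in ApoE-/- 5, -0.46 in NPRC-/-ApoE-/- 3 and -1.0 in NPRC-/-ApoE-/- 2. It weighs the most variable genes, above all Col2a1, most heavily. Out of 14089 named loci with a mean of at least 1 FPKM, Pex2 had the most similar pattern over the 8 libraries with a Pearson correlation of 0.98, followed by Hcar2 (0.97), BC005561 (0.97), a locus of Cul4b and C1galt1c1 (0.97) and Ube2j2 (0.96). These correlations are a description of 8 points that share library and depth.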

How the data were processed

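Poly(A) RNA of whole mouse aorta was analysed in 8 libraries. The authors trimmed reads (cutadapt 1.9, with FastQC and the build GRCm38, per the submitters' processing notes), used HISAT2 for mapping and StringTie for assembly, and deposited a raw count and an FPKM value per locus and library. How reads were counted, and whether by strand, was not given in the sources used here. All value columns matched a sample (0 did not).

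Loci with a mean of at least 10 counts (31983) were tested with edgeR 4.0.16 in R 4.3.3 (TMM, quasi-likelihood test, Benjamini-Hochberg adjustment), whose biological coefficient of variation was 0.435. The criterion, as in the study's methods, was an unadjusted p under 0.05 at a fold change over 2 or under 0.5. DESeq2 1.42.0, limma 3.58.1, other filters and scalings, a replicate block and each library left out in turn were alternatives. Log2 CPM had a prior count of 2. The correlations among the 10 genes instead used CPM of the library total, without TMM and with a smaller constant added. The script was tested on simulated data. No library repeated another within sampling noise (smallest mean chi-square per locus 101). Total counts were 62969165 to 86693276 per library.

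The 10 genes and all lists were chosen with earlier results of these data known. Named from the wider lists are genes past the criterion by title and the 2 with the highest mean FPKM, and from all loci the 5 most like the mean of the 10 genes. Genes named outside this rule are marked in the text. Symbols were read from the deposited table, and where a symbol named several loci the one with the most counts was used.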

Additional observations from a re-analysis of the deposited data

Results flagged for a closer look

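In 20 groups of 5 libraries, each of the 10 genes under both groupings, 0 libraries lay far enough from the others to be singled out, where chance gives about 1 in 20 groups. The groups of 3 libraries were not checked, among them the titled one with Col2a1 at 2 counts in NPRC-/-ApoE-/- 2. The 20 groups also share libraries, so that this count does not show the libraries to be alike.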

How the results depend on the processing

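By title 0 genes met the criterion in the 16 alternatives with a test, which fitted all 10 genes except 6 with the filter of 1 FPKM and 9 without ApoE-/- 5 and in both fits of the libraries 1 to 3, and their median log2 fold change stayed between -0.60 and -0.07. The number with an unadjusted p under 0.05 was 1, and ranged from 0 (without NPRC-/-ApoE-/- 2) to 2 (without ApoE-/- 5, Sox9 and Comp) when 1 library was left out. In the libraries 1 to 3 it was 2 (Sox9 and Comp, p 0.0252 by edgeR) with a replicate block and 1 with no replicate block (Comp p 0.0561). Same-numbered libraries were not treated as pairs in the main test. Their deviations from the group mean correlated at -0.23, -0.08 and 0.02, too few values to settle whether they were paired. Sox9 was negative in all 17 alternatives, from -0.74 to -0.39, with an adjusted p of 0.12 to 0.744. Reversed signs were 0.84 for Col2a1 with the replicate block (-0.55 with no block, and -2.50 to -0.08 with 1 library left out), 0.12 for Col9a1 without ApoE-/- 2 (lowest value with 1 library left out -3.44), -0.22 for Col11a2 in the 4 libraries whose labels agree and -0.38 to 0.63 with 1 library left out, and -0.014 for Chad in the libraries 1 to 3 with no replicate block and -0.038 to 0.21 with 1 library left out. By genotype entry the counts past the criterion and under an unadjusted p of 0.05 ranged from 0 to 1 (Col9a1, without ApoE-/- 4). For the wider lists, an alternative set added after seeing the data, the count by title was 5 and became 2 with limma on log2(FPKM + 1), 3 in the libraries 1 to 3 with the replicate block (6 with no block) and 1 to 12 with 1 library left out, and by genotype entry 0 to 4. Matn3 kept its sign, at -2.80 to -1.44 with 1 library left out. Matn3 and Col9a1 had few counts, 0 to 39 and 0 to 74.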
